A study of Caenorhabditis elegans with 2 samples.

Results

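The genes described here encode many nuclear subunits of the mitochondrial respiratory chain and ATP synthase of Caenorhabditis elegans, and 8 encode complex IV assembly proteins. They were picked by gene name from the protein-coding genes of the nuclear chromosomes in the Ensembl models of assembly WBcel235, by a rule written with earlier results of these data known, and 52 of 19973 such genes met the naming rule. By complex there were 14 genes of complex I, 5 of complex II, 7 of complex III, 2 cytochrome c genes, 7 subunit genes and 8 assembly genes of complex IV, and 9 genes of complex V. At each gene the highest deposited signal value among summits within 500 bp of the annotated 5' end was read, in each of 3 peak lists.

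The assay was ChIP-seq, in which DNA bound to a chosen protein is recovered with an antibody and sequenced to find where in the genome it lay. Whole young adult hermaphrodites of strain OP399 were used, 67 hours after they had been synchronized as starved L1 larvae. They carried the unc-119(tm4063) mutation and the integrated transgene wgIs399, which makes F22D6.2 with a GFP and FLAG tag at its C-terminus, and chromatin was recovered with an antibody against GFP. There was 1 group of 2 biological replicates from this 1 strain and no other condition, so no comparison of conditions could be made and none of the differences below was tested. Whole animals were used, so a value averages over all tissues, and the tagged protein came from a transgene and not from the native locus.

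The respiratory chain passes electrons from NADH and succinate through complexes I to IV to oxygen, with ubiquinone and cytochrome c as carriers, and pumps protons across the inner mitochondrial membrane. Complex V, the ATP synthase, lets the protons return and makes ATP. Some core subunits are encoded by mitochondrial DNA, and the genes described here lie in the nucleus, so building a complex draws on both genomes. In C. elegans, mutants of several of them, among them isp-1, gas-1, mev-1 and nuo-6, are known for altered life span or oxygen sensitivity.

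The lists held 26002 regions for both replicates pooled, 25000 for replicate 1 and 23268 for replicate 2, on build ce11. Per their deposited descriptions they mix peaks with background regions, so being listed is a low bar, and a gene with no summit is called not listed. The authors' thresholded set held 798 peaks, the highest 798 of the pooled list, with signal values of 80.3 and above. The deposited signal value has a scale that the sources used here do not give, and the number of reads behind it is unknown. It is the authors' value and is used to describe and rank regions within a list, and values of different lists are given side by side without a comparison of their size. The same control served both replicates.

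Thresholded summits lay at 6 of the 52 genes: cox-5A and cox-5B of complex IV, atp-1 of complex V, mev-1 and sdha-1 of complex II, and ucr-2.2 of complex III. This was 11.5% of the genes described here, beside 2.02% of all nuclear protein-coding genes. No complex I gene, cytochrome c gene or complex IV assembly gene by the naming rule had one. These groups hold 14, 2 and 8 genes, so beside 2.02% of all genes a count of 0 is not shown to be particular to them. In the pooled list 35 of the 52 (67.3%) were listed, beside 30.2% of all genes, and 23 (44.2%) were listed in both replicates, beside 16.1%. Listed in none of the 3 lists were 11 genes (21.2%), beside 57.3%. The −log10 q-value of the pooled list has a ceiling of 2.44, shared by 1810 regions, and 10 of the 52 genes (19.2%) had a summit at it, beside 4.34% of all genes. Among the listed genes the median of the highest pooled signal value was 30.1 for the 35 genes and 25.7 for the 6025 listed genes in all. The upper quartile was 56.9 for the 35 genes and 38.3 for all listed genes, and 10 of the 35 (28.6%) were at the q-value ceiling, beside 14.4% of all listed genes.

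**Figure D1:**
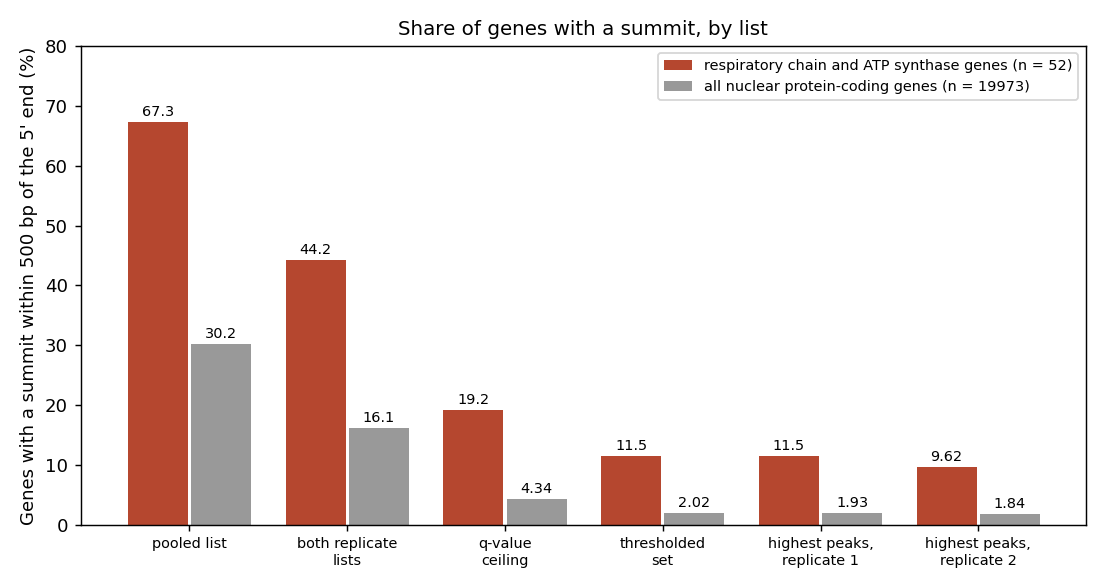
Bars give the share of genes (percent, vertical axis) with a summit within 500 bp of the 5' end, in red for the 52 respiratory chain and ATP synthase genes and in grey for all 19973 nuclear protein-coding genes, by the list that holds the summit. The red bar is higher in each of the 6 pairs, from 67.3% beside 30.2% in the pooled list to 9.62% beside 1.84% among the 798 highest peaks of replicate 2.

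The gene model decided whether a thresholded summit was counted at 1 gene, cox-6B. The Ensembl model of cox-6B, which encodes a small complex IV subunit, spans 87.2 kb of chromosome III from 2699663 to 2786859, because 1 of its 2 annotated transcripts starts far upstream. No region was listed at that outer 5' end. At the 5' end of the shorter transcript, at 2786202, a thresholded summit lay 158 bp upstream with a pooled signal value of 101.7. There the highest value was 32.2 in replicate 1, at rank 1502, and 60.9 in replicate 2, at rank 358. RefSeq starts this gene at the shorter transcript, and with RefSeq 5' ends, an alternative added after the values were seen, cox-6B became the seventh gene with a thresholded summit, 13.5% of the 52 beside 1.98% of all genes. That summit is also within 500 bp of the 5' end of Y71H2AM.20.

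The sequences around the highest pooled summit are shown for mev-1, sdha-1, ucr-2.2 and cox-5A among the 6 genes with a thresholded summit. They are also shown for cox-6B at its shorter transcript and for ucr-2.1, the highest of the 52 below the threshold (69.3 at rank 1076). Each runs from 100 bases before to 100 bases after the summit, 5' to 3' on the strand of the gene, and comes from the RefSeq copy of WBcel235. They lie at chrIII:10334051-10334251 (mev-1, plus strand), chrX:8546091-8546291 (sdha-1, minus strand), chrX:15173632-15173832 (ucr-2.2, plus strand), chrX:12018045-12018245 (ucr-2.1, plus strand), chrIII:12905099-12905299 (cox-5A, plus strand) and chrIII:2785944-2786144 (cox-6B, plus strand). The windows of cox-5B and atp-1 are not printed here. Capitals mark 2 words of 8 letters that recur among those shown, TGACGCAT and GCTGGCGC, on either strand; both windows left out held neither word, so the set shown is not a fair sample of the 6.
mev-1: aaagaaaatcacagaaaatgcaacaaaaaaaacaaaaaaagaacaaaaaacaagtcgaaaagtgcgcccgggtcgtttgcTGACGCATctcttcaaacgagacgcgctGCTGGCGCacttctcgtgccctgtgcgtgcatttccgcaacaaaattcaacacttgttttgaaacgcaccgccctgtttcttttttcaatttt
sdha-1: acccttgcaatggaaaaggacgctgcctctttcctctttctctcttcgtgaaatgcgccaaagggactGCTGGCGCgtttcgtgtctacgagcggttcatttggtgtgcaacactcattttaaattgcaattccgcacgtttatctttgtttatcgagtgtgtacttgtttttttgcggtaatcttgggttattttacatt
ucr-2.2: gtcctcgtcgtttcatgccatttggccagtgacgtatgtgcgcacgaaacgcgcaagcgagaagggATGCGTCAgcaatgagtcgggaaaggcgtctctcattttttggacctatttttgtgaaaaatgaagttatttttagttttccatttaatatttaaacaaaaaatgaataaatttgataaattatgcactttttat
ucr-2.1: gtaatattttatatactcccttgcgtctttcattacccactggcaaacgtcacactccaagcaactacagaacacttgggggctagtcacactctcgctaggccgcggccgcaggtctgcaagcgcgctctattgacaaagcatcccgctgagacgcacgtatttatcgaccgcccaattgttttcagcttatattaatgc
cox-5A: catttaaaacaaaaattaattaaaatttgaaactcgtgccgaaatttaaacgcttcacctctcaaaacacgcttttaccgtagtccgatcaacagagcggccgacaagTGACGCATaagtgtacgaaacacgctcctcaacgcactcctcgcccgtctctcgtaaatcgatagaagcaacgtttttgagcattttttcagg
cox-6B: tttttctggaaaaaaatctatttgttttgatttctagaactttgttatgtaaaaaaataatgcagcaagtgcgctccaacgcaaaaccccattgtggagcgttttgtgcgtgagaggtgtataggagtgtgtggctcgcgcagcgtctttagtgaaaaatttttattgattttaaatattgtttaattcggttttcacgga

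The words were picked after these windows had been read, so their presence in them is a description. TGACGCAT stood in 3 of the 6 windows of genes with a thresholded summit, in mev-1 and cox-5A as written and in ucr-2.2 as its reverse complement. Its nearest base lay 13 bp from the summit in mev-1, 8 bp in cox-5A and 27 bp in ucr-2.2. It stood in none of the 29 windows of members listed below the threshold. Of all 330 thresholded summits within 500 bp of a nuclear coding 5' end, 13 (3.94%) had it in the same window, and of the 6198 other pooled regions there 35 (0.565%) did. GCTGGCGC stood in 2 of the 6, mev-1 (8 bp from the summit) and sdha-1 (25 bp), and in 1 of the 29, cyc-1, where it covers the summit. It stood in 33 of the 330 windows (10%) and in 59 of the 6198 (0.952%). The 330 include windows that had been read when the 2 words were picked, so the shares given for both words are not independent of that choice. The windows of cox-5B, atp-1, ucr-2.1 and cox-6B held neither word.

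A further 5 words were not picked from these windows. GAGAGA stood in 3 of the 6 windows with a thresholded summit and in 4 of the 29 below it, beside 99 of 330 (30%) and 1063 of 6198 (17.2%). TTTCAG, which resembles the worm's splice acceptor sequence, stood in 1 of the 6 and 12 of the 29, beside 20% and 32.9%. CACGTG stood in none of the 35, beside 10.3% and 4.92%. TATAAA stood in 0 of the 6 and 7 of the 29, beside 13.6% and 25.7%, and a run of 8 T in 1 of the 6 and 6 of the 29, beside 13.6% and 18.7%. Both strands were searched, windows of close summits overlap, and GC content moved with the threshold: its median was 43% in the 6 windows and 37.8% in the 29, beside 43.3% and 36.8%. In the 250 bases before to 50 after the 5' end, GAGAGA stood at 12 of the 52 genes (23.1%), beside 21.8% of all genes, and TATAAA at 21 (40.4%), beside 37.9%.

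Complex II links the citric acid cycle to the chain by oxidizing succinate, and 2 of its 5 genes had a thresholded summit, beside 2.02% of all genes. mev-1 (WBGene00003225), on chromosome III from 10334277 to 10335168, encodes the membrane subunit that carries the cytochrome b. Its pooled signal value was 110.07, at rank 414, with values of 44.1 in replicate 1 and 66.4 in replicate 2. The summits of the 3 lists lay within 11 bp of each other, from 126 to 137 bp upstream of the 5' end. The divergent gene jmjd-4 has its 5' end 259 bp from that of mev-1, and the pooled summit lay 133 bp from it, so the peak stands midway between both genes.

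sdha-1 (WBGene00015391), on X from 8542757 to 8546021, encodes the flavoprotein subunit that binds succinate. It had a pooled signal value of 81.1 at rank 783, close to the lowest thresholded value of 80.3, with 46.1 in replicate 1 and 35.0 in replicate 2. Replicate 1 ranked it 647 and replicate 2 ranked it 1343, so it was among the 798 highest in replicate 1 alone. Its pooled summit, 170 bp upstream, lay inside the snoRNA gene D2021.6 and 32 bp from the ncRNA gene D2021.5, and signal at these and at sdha-1 cannot be told apart. Its paralog sdha-2 was listed in replicate 1 alone, with 14.97 at rank 10364. sdhb-1, the iron-sulphur subunit, was near the foot of the pooled list with 15.3 at rank 25469, and the membrane anchor sdhd-1 was listed in replicate 2 alone with 17.3.

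Complex III carries electrons from ubiquinol to cytochrome c, and 6 of its 7 genes were listed in the pooled list, beside 30.2% of all genes. ucr-2.2 (WBGene00011679), on X from 15173904 to 15178145, encodes a core protein of the complex. Its pooled signal value was 94.6 at rank 564, with 55.0 in replicate 1 and 40.4 in replicate 2. The summits lay from 148 to 173 bp upstream. Replicate 1 ranked it 438 and replicate 2 ranked it 960, outside its 798 highest.

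The paralogs of ucr-2.2 differed from it and from each other. ucr-2.1, also on X, had 69.3 at rank 1076, outside the thresholded set, with 19.8 at rank 5156 in replicate 1 and 50.1 at rank 595 in replicate 2. The 2 replicates thus placed it far apart, and its summit was nearer to the divergent gene nmat-1 (102 bp) than to its own 5' end (284 bp). ucr-2.3, on chromosome III, had 22.1 in the pooled list and 19.4 in replicate 2, was not listed in replicate 1, and shares its summit with T24C4.5. Each of the 3 paralogs was thus at another level of the lists, from the thresholded set to regions listed in 1 replicate.

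Cytochrome c1, the product of cyc-1, hands electrons on to cytochrome c. cyc-1 had 57.7 in the pooled list, 30.4 in replicate 1 and 30.01 in replicate 2, with summits 305 to 384 bp upstream, and its pooled summit was at the q-value ceiling. ucr-11 had 25.5 in the pooled list, and ucr-1, a core protein gene, had 16.6. isp-1, which encodes the Rieske iron-sulphur protein, was listed in replicate 2 alone, with 13.1 at rank 13805. Of the cytochrome c genes, cyc-2.1 had 36.2 in the pooled list, 15.7 in replicate 1 and 29.0 in replicate 2, with the pooled summit 460 bp downstream of the 5' end. A summit with 54.5 came within reach of a shorter cyc-2.1 transcript. RefSeq places the 5' end of cyc-2.1 more than 500 bp from the one used here, so its value and offset depend on the gene model. cyc-2.2 was in none of the lists.

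Complex IV, cytochrome c oxidase, passes the electrons to oxygen, and it held the highest value of all 52 genes. cox-5A (WBGene00012553), a subunit gene on chromosome III from 12905491 to 12906619, had a pooled signal value of 300.03 at rank 53. Its values were 149.8 at rank 51 in replicate 1 and 148.0 at rank 57 in replicate 2. The summits lay 270 to 292 bp upstream, within 22 bp of each other, and no other coding 5' end lay within 500 bp of the pooled one. With a window of 250 bp the peak no longer counted for the gene.

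cox-5B (WBGene00000371), a further subunit gene, had 110.4 at rank 408 in the pooled list, 44.1 in replicate 1 and 66.8 in replicate 2. Its pooled summit was 29 bp upstream and that of replicate 2 was 20 bp upstream, while the highest in replicate 1 was 71 bp downstream. Replicate 1 ranked it 718 and replicate 2 ranked it 295, so both had it among their 798 highest. The other listed subunit genes were cox-6A, with 30.1 in the pooled list and 20.0 in replicate 2, and cox-4, with 27.2 in the pooled list, 14.01 in replicate 1 and 16.2 in replicate 2. The cox-4 summits lay 485 bp upstream in the pooled list, 449 bp upstream in replicate 1 and 170 bp downstream in replicate 2. The pooled one lay inside the pseudogene WBGene00012355. cox-6C and cox-7C were in none of the lists. cox-6A, not listed in replicate 1 near its 5' end, had a thresholded summit 792 bp upstream, with 122.8.

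The complex IV assembly genes that met the naming rule had pooled values of 27.3 or less where listed. Of these 8 genes, 6 were listed in the pooled list, beside 30.2% of all genes. Their values ran from 16.0 (cox-14) to 27.3 (cox-15, which makes haem A). Only cox-18, which encodes an inner membrane insertion protein, was listed in both replicates, beside 16.1% of all genes. cox-17, which encodes a copper chaperone, had 18.5 in the pooled list and 15.3 in replicate 1 and was not listed in replicate 2. cox-16 and cox-19 were in none of the lists. The median pooled value of the listed assembly genes was 18.0, beside 70.2 for the 4 listed subunit genes and 25.7 for all listed genes. The subunit values were spread widely: cox-4 (27.2) and cox-6A (30.1) were close to cox-15, and cox-5B (110.4) and cox-5A (300.03) were far above it.

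Complex V has a catalytic head of alpha and beta subunits, joined to the membrane part by a central and a peripheral stalk. Each of its 9 genes was in at least 1 list, while 57.3% of all genes were in none. In the pooled list were 8 of the 9, beside 30.2% of all genes, and in both replicates 7, beside 16.1%. atp-1 (WBGene00010419), the alpha subunit gene on chromosome I from 12652277 to 12654655, had 153.6 at rank 182 in the pooled list, with 83.9 at rank 154 in replicate 1 and 66.9 at rank 293 in replicate 2. Its summits lay 14 to 29 bp downstream of the 5' end, the only thresholded one of the 6 to lie inside the gene. The divergent gene mcrs-1 has its 5' end 219 bp from that summit, and the piRNA gene 21ur-12279 lies 79 bp from it.

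The other complex V genes were below the threshold. atp-2, the beta subunit gene, had 37.7 in the pooled list, 18.5 in replicate 1 and 25.7 in replicate 2. Its highest summits lay 447 bp downstream in the pooled list and in replicate 1 and 239 bp upstream in replicate 2. Each list had 2 summits within 500 bp of this 5' end, and only the highest is given. atp-3, the stalk protein gene OSCP, had 43.9 in the pooled list, 11.6 at rank 17971 in replicate 1 and 32.9 at rank 1555 in replicate 2. Its pooled summit lay 11 bp from the ncRNA gene F27C1.17, 15 bp from the ncRNA gene F27C1.16 and 236 bp from the 5' end of F27C1.2. Signal at these and at atp-3 cannot be told apart. atp-5 had 51.4 in the pooled list, 35.1 in replicate 1 and 18.8 in replicate 2, but its pooled summit was nearer to the 5' end of lmtr-3 (51 bp) than to its own (268 bp). asg-2, a subunit g gene on X, had 56.1 in the pooled list, 40.0 in replicate 1 and 24.1 in replicate 2, while its paralog asg-1 was listed in replicate 1 alone with 10.5. asb-2, a subunit b gene, had 33.4 in the pooled list and was in both replicates, and its paralog asb-1, known for its role in the germline, had 19.0 and was not listed in replicate 2. atp-4 had 27.2 in the pooled list. The highest atp-4 summit lay 465 bp upstream in the pooled list, 305 bp downstream in replicate 1 and 146 bp upstream in replicate 2.

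Complex I, which oxidizes NADH, is the largest of the complexes and had none of the thresholded summits. Beside the 2.02% of all genes with one, 0 of 14 is not shown to be particular to complex I. Of its 14 genes 7 were listed in the pooled list (beside 30.2% of all genes), 5 in both replicates (beside 16.1%) and 5 in no list (beside 57.3%). The highest was nduf-11, with 68.9 at rank 1092 in the pooled list, 40.7 at rank 861 in replicate 1 and 26.3 at rank 2608 in replicate 2. Its summits lay within 33 bp of each other, 213 to 246 bp upstream, and it was the only one of the 14 at the q-value ceiling. Then came nuo-3, with 36.2 in the pooled list, 21.9 in replicate 1 and 14.2 in replicate 2, and nuo-2, with 36.1, 26.6 in replicate 1 and 10.5 in replicate 2. The summits of nuo-3 lay 435 to 467 bp downstream and were nearer to another coding 5' end, at 405 bp.

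In none of the lists were 5 complex I genes: gas-1, nduf-2.2, nduf-6, nduf-9 and nuo-6. gas-1 and nduf-2.2 encode closely related subunits of the arm that faces the matrix. nduf-2.2 and nduf-9 each had a thresholded summit farther off, 843 bp upstream (110.3) and 611 bp upstream (101.3). nduf-6 and nuo-6 lie 8.7 and 10.4 kb from F22D6.2, the native locus of the tagged gene. nuo-1, the NADH-binding subunit gene, was listed in replicate 1 alone with 16.2, and nduf-5 in replicate 1 alone with 14.3. Subunits of complex I with the newer names (ndua, ndub, nduc, ndus and nduv) were not among the 52. Of those 19 genes, 13 were listed in the pooled list, beside 30.2% of all genes. A thresholded summit lay at 0 of them, beside 2.02%, and the highest value was at ndua-2 (64.5).

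**Figure D2:**
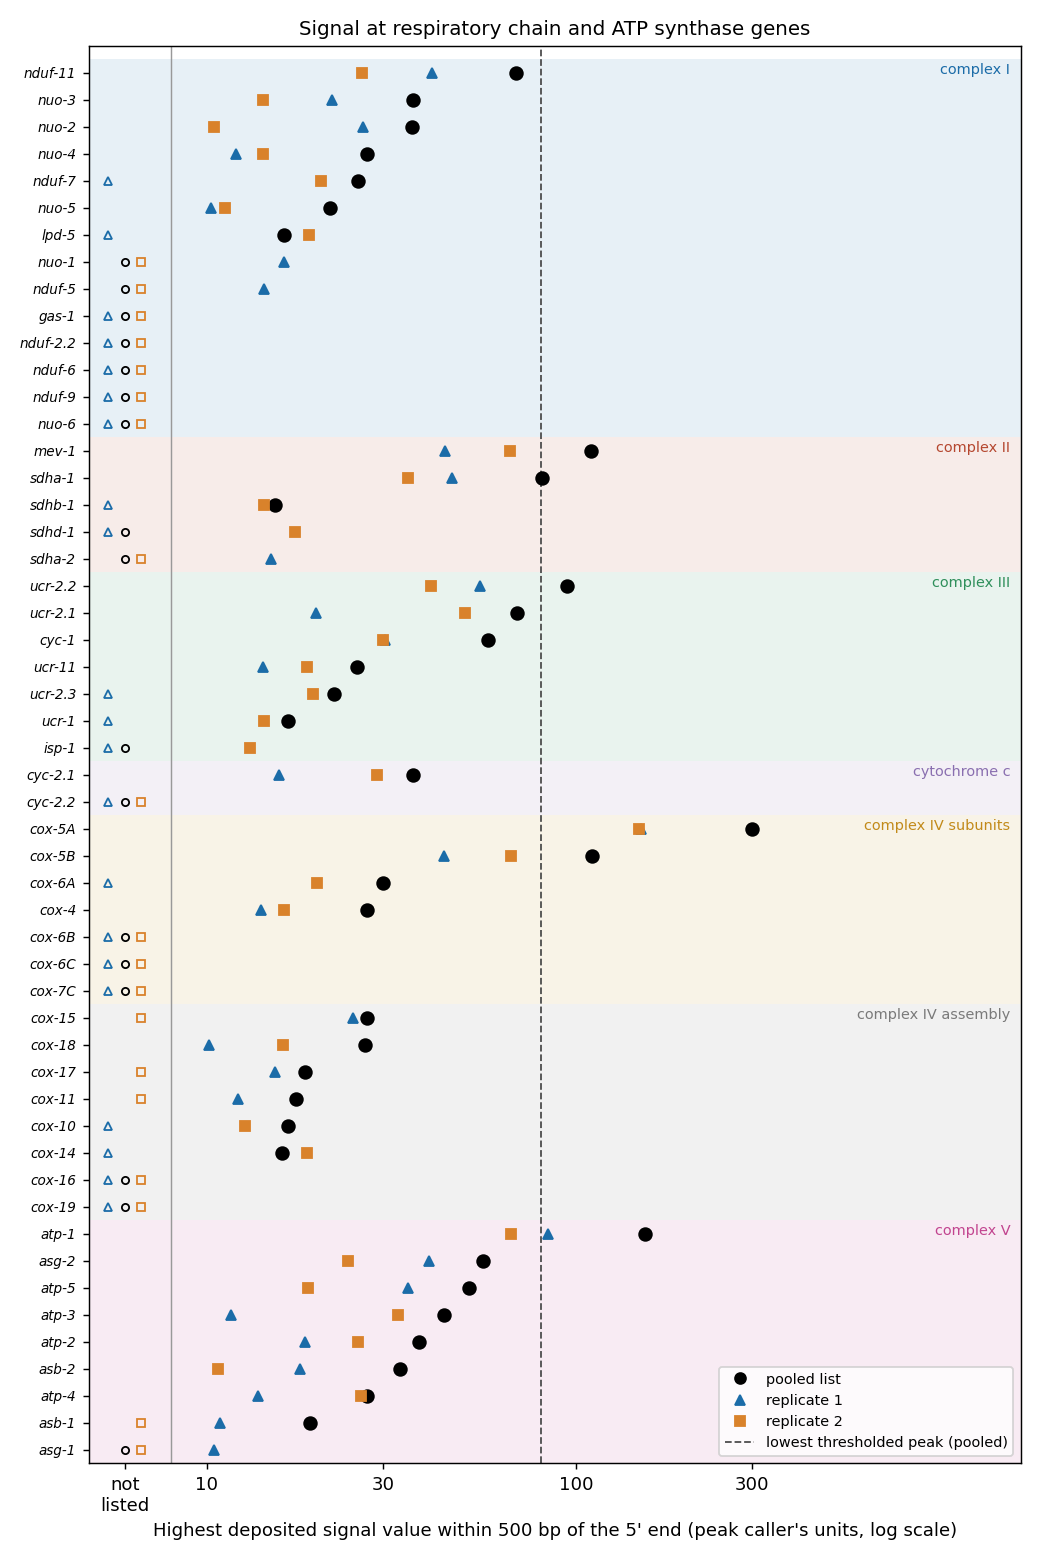
Each row is 1 of the 52 genes, grouped by complex in the coloured bands, and the horizontal log axis gives the highest deposited signal value within 500 bp of its 5' end in the pooled list (black circles), replicate 1 (blue triangles) and replicate 2 (orange squares), with open symbols at the left where the gene was not listed. The dashed line marks the lowest thresholded value, 80.3, which 6 pooled circles pass, with cox-5A at 300.03 and none from complex I.

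Among the 798 highest peaks of replicate 1 were summits at 6 of the 52 genes (11.5%, beside 1.93% of all genes), and among those of replicate 2 at 5 (9.62%, beside 1.84%). Of the 7 genes in either set, both sets held 4 (7.69% of the 52, beside 1.27% of all genes), which were mev-1, cox-5A, cox-5B and atp-1. sdha-1 and ucr-2.2 came from replicate 1 only and ucr-2.1 from replicate 2 only. Over the 23 genes listed in both replicates Spearman's rho of the ranks was 0.651, beside 0.592 over the 3217 such genes in all. This is a description across genes, which share the libraries and the control. Of the 41 genes listed in either replicate, 8 were in replicate 1 alone (15.4% of the 52, beside 12.3% of all genes) and 10 in replicate 2 alone (19.2%, beside 11.7%). Where a gene was in all 3 lists, the highest summits fell within 100 bp of each other at 14 of 23 genes (60.9%), beside 52.2% of all such genes.

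**Figure D3:**
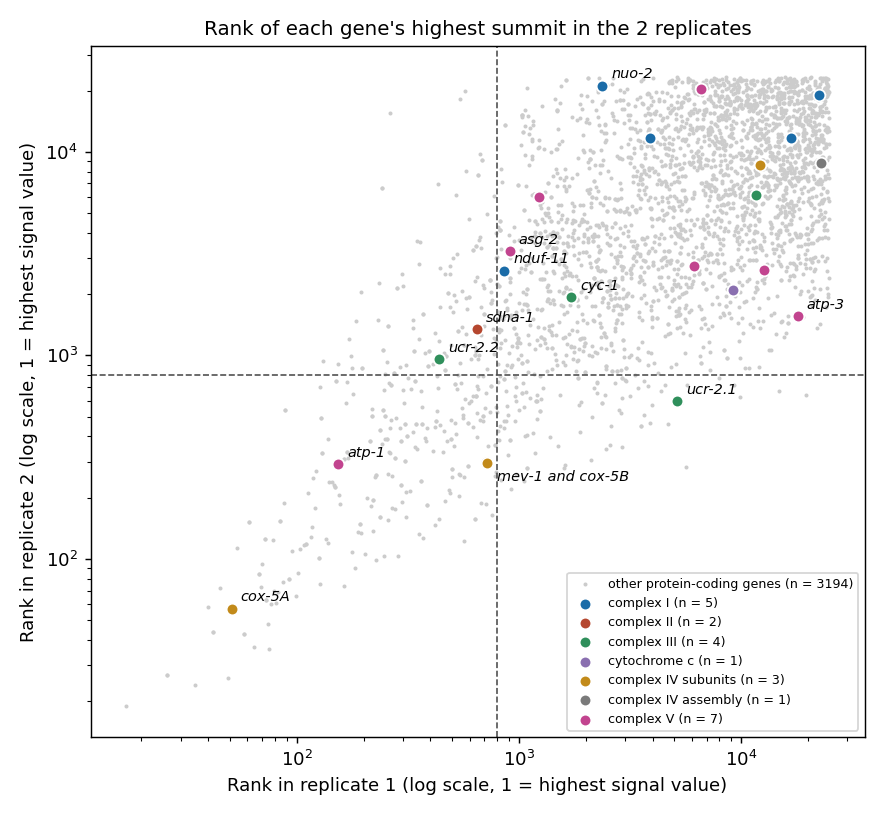
Each point is a gene listed in both replicates, placed by the rank of its highest summit in replicate 1 (horizontal log axis) and replicate 2 (vertical log axis), with 23 respiratory chain and ATP synthase genes coloured by complex and other genes in grey. Dashed lines mark rank 798, and 4 coloured genes lie below both (atp-1, cox-5A and the overlapping points of mev-1 and cox-5B), while ucr-2.1 has rank 5156 on the horizontal axis and 595 on the vertical one.

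Summits mostly lay upstream. The thresholded summit was upstream at 5 of the 6 genes (83.3%), beside 89.8% of all genes with one. Among the 35 listed genes the highest pooled summit was upstream at 24 (68.6%), beside 61.4% of all listed genes. Between the lower and upper quartile the 35 offsets ran from 231 bp upstream to 136.5 bp downstream, beside 250 bp upstream to 149 bp downstream for all listed genes. Of the 35 summits, 14 (40%) lay within 500 bp of a further coding 5' end, and 6 of these (17.1% of the 35) were nearer to it than to the gene described (nuo-3, ucr-2.1, ucr-11, cox-11, cox-14 and atp-5). The same was not counted over all listed genes, so neither share is shown to be particular to these genes.

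**Figure D4:**
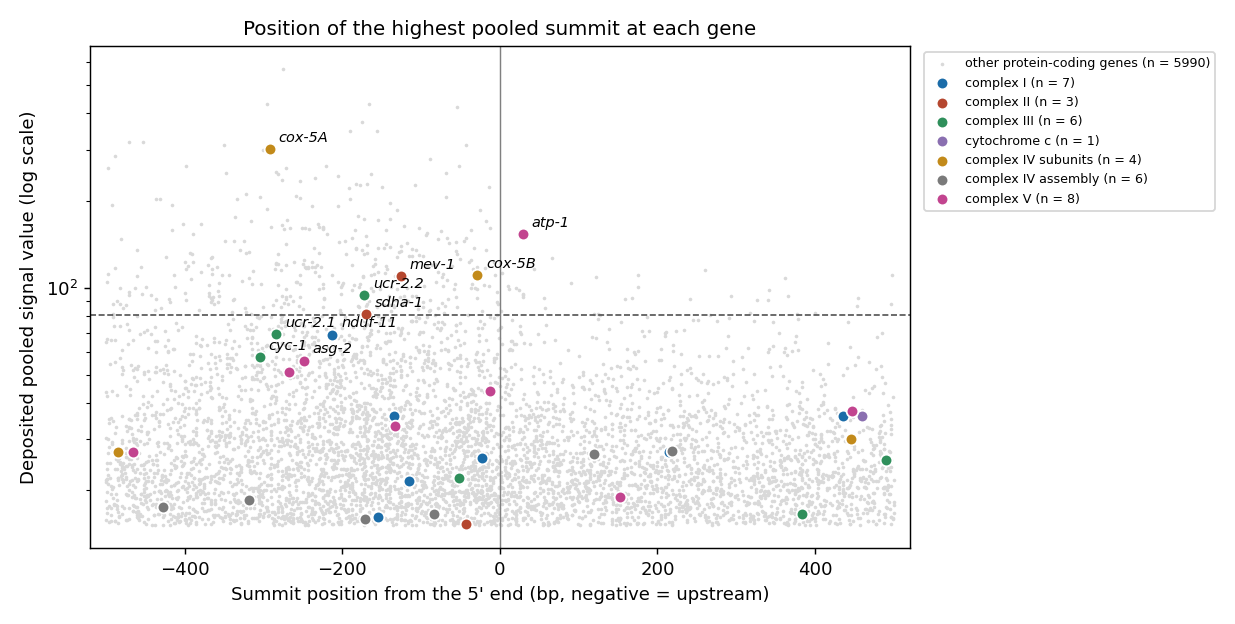
The horizontal axis gives the position of the highest pooled summit from the 5' end (bp, negative upstream) and the vertical log axis its deposited signal value, for the 35 listed respiratory chain and ATP synthase genes (coloured by complex) and for other listed genes (grey). Above the dashed line at 80.3 the coloured points lie from 292 bp upstream (cox-5A) to 29 bp downstream (atp-1), and coloured summits more than 100 bp downstream have pooled values under the line.

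Where the genes lie was compared as far as counts allow. On X, 2 of 6 genes (33.3%) had a thresholded summit, beside 1.94% of all X genes, and on autosomes 4 of 46 (8.7%), beside 2.03%. A divergent coding neighbour within 1000 bp was present at 25 of the 52 genes, and 2 of these (mev-1 and atp-1) had a thresholded summit (8%), beside 4.83% of all genes with such a neighbour.

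Many worm genes lie in operons, in which downstream genes follow the gene before them at a short distance and share its promoter. The annotation used here does not mark operons, so only the distance to the gene before was measured. A same-strand coding gene ended within 500 bp upstream at 17 of the 52 genes, with gaps from 20 to 458 bp and a median of 111 bp. Of these 17 genes, 15 (88.2%) were listed in the pooled list, beside 38.4% of all genes with such a neighbour. A thresholded summit lay at 2 of the 17 (11.8%), beside 1.66%. These were ucr-2.2, with a gap of 268 bp, and sdha-1, with a gap of 424 bp. No gene with a gap at or below the median of 111 bp had a thresholded summit. That cut is the median of these 17 genes, and the same was not counted over all genes. Beside 1.66% of all genes with such a neighbour, this is not shown to be particular to short gaps. Of the other 35 genes, 20 (57.1%) were listed, beside 28% of all genes without such a neighbour, and 4 (11.4%) had a thresholded summit, beside 2.11%. In 3 of the 17 cases the gene before had a thresholded summit at its own 5' end: rpl-20 (432) before cyc-2.1, Y55F3AR.2 (202) before cox-18 and dad-1 (122.3) before ucr-11. Pooled values at the downstream genes were 36.2 (cyc-2.1), 26.8 (cox-18) and 25.5 (ucr-11). In 10 of the 17 cases the gene before was listed in the pooled list. Neither count was made over all genes with such a neighbour, so neither is shown to be particular to these genes.

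Further genes of mitochondrial energy metabolism were counted in 6 lists with 75 genes, of which 19 are the complex I subunits with newer names given above. Of the 75, 48 (64%) were listed in the pooled list, beside 30.2% of all genes, and 6 had a thresholded summit, beside 2.02% of all genes. Of 19 genes of the citric acid cycle and pyruvate metabolism, 14 (73.7%) were listed and 3 had a thresholded summit: cts-1, citrate synthase, with 147.4, sucl-1, a succinyl-CoA ligase subunit, with 118.4, and idhg-1, an isocitrate dehydrogenase subunit, with 83.4. tomm-20, an import receptor of the outer membrane, had 130.5, as 1 of 13 import genes, of which 9 were listed. sco-1, a copper chaperone of complex IV assembly, had 91.9, as 1 of 11 assembly factor genes, of which 6 were listed; that list was made by name and also took in sft-4, which is not an assembly factor. ant-1.1, an ADP/ATP carrier, had 80.7, just inside the threshold, as 1 of 5 carrier and porin genes. Of 8 genes of ubiquinone synthesis, 3 were listed in the pooled list (37.5%), not far from the 30.2% of all genes, and 0 had a thresholded summit. In both replicate lists, however, were 4 of these 8 genes, beside 16.1% of all genes.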

How the data were processed

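ChIP-seq peak lists of 2 biological replicates were used as the authors deposited them, on build ce11: a list for each replicate, a list for both pooled and a thresholded set. Per the deposited file descriptions, each list was made from alignments with a control. The aligner, the peak caller and the threshold are not given in the sources used here. The signal value and the −log10 q-value of each region are the authors' deposited values. The deposited summit offset, a whole number of bp from the region's start, gave the summit.

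Genes were taken from Ensembl 115 models of WBcel235 (ce11), and sequence from RefSeq. Scripts in Python 3.11.15 with numpy 2.4.6, scipy 1.17.1 and matplotlib 3.10.9 took, for each gene, the highest signal value within 500 bp of its 5' end. Assignment was tested on simulated data. Lists on ce10 were not used, and coordinates were not converted. With 1 group of samples no test was run. Counts are set beside the same counts over all nuclear protein-coding genes, which are not independent replicates.

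The members, gene lists and named genes were chosen with earlier results of these data known. Named were members with a thresholded summit or among the 798 highest peaks of either replicate, the 3 highest of each complex, and thresholded genes of the other lists. Further members were named after their values were seen. Alternatives were other windows, 5' ends, sets and single replicates.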

Additional observations from a re-analysis of the deposited data

How the results depend on the processing

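In brackets is the share of all genes under the same setting. The count of genes with a thresholded summit was 6 (2.02%) and ran from 5 to 9 under each alternative but 1. The exception was the thresholded peaks above their median signal value, a set that holds fewer peaks. There the share fell from 11.5% to 3.85% of the genes described here, and from 2.02% to 1.02% of all genes. The count in that set was 2 (1.02%), cox-5A and atp-1. It was 6 in replicate 1 alone (1.93%), 5 in replicate 2 alone (1.84%), 5 with a 250 bp window (1.24%), 9 with 1000 bp (2.8%; with nduf-2.2, nduf-9 and cox-6A), 7 at any transcript 5' end (2.18%), 6 with the nearest gene only (1.62%), 5 with upstream summits only (1.81%) and 8 in the longer set (2.99%). The count in the pooled list (35) ran from 31 to 33 with either replicate alone, and was 22 with a 250 bp window (18.9%) and 42 with 1000 bp (43%). The count in both replicate lists (23) was 12 with a 250 bp window (8.08%), 34 with 1000 bp (26.2%), 12 with upstream summits only (9.27%) and 15 among the regions above the median of each list (9.46%).

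Of the pooled values of 19 named genes, 16 were unchanged with a 1000 bp window, and cox-17 (30.8), cox-6A (122.8) and cyc-2.1 (54.5) were higher. With a 250 bp window 8 of the 19 were no longer listed. No paired analysis was possible because there was 1 group of samples. Depth was unknown, so a gene not listed is not shown to be unbound.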
